A study of Prunus persica with 16 samples.

Results

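In peach buds, 123 of 26873 gene identifiers were both very abundant and steady. Each had a mean of 1000 FPKM or more over 16 libraries (FPKM counts fragments per transcript length and per library size, so it is a level per length). For each of them the group medians of log2(FPKM + 1) differed by less than 1 in 4 comparisons, which were HC against control at 7 days, HC against control at 3 days, 7 against 3 days in HC buds and 7 against 3 days in control buds. Of the 182 identifiers at 1000 FPKM or more, 59 were past a bound in at least 1 comparison and are not members, and the range Prupe.1G531100 to Prupe.1G531700 was left out by the rule, which removed 0 further genes. The members were thus chosen by their measured level and by their shifts with treatment and day, and their values below are descriptions without a test.

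Each group had 4 libraries, by the labels from separate trees of the low-chill cultivar TropicBeauty. The HC buds, taken 7 or 3 days after treatment, came from trees sprayed with 1% (v/v) hydrogen cyanamide (HC) plus 0.15% (v/v) of a non-ionic surfactant. The control buds of the same days came from unsprayed trees. All trees were 5 years old, stood on Floridaguard rootstock in 1 orchard and had met 11 of the 150 chilling hours that the cultivar needs. The labels name the surfactant for the sprayed trees alone, so effects of HC and of the surfactant cannot be told apart. With 4 trees in each treatment, the 7-day and 3-day buds would by count be from the same set of trees, and which library pairs with which is not given.

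Buds of temperate fruit trees stay dormant through winter and need a period of cold before they grow again. Growers spray hydrogen cyanamide on resting trees so that buds open earlier and more evenly. A small number of transcripts can make up a large part of the mRNA of a plant tissue, and units scaled to library size, such as FPKM, express every transcript as a part of that total. The libraries were bulk buds, in which fewer cells of a type and less RNA per cell cannot be told apart. The files pair the identifiers with no gene names, and none (0) of the 26412 genes listed for reference carried one of these identifiers, so members are given by identifier, no role is assigned to any of them, and the tissue was not checked by marker genes.

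The depth behind these values was estimated from the smallest steps between low values, since FPKM carries no read count. A clear step was found in 13 of the 16 libraries, with estimated totals of 555 to 15506 in units of 1000 reads, and 3 libraries gave none. In those 13 libraries the members together held an estimated 108 to 2403 in the same units. Over the 123 members, the median of the lowest estimate in any of the 13 libraries was 459 reads, and 3 members were under 100 reads in some library, the lowest being Prupe.2G184600 at 62.6 reads. Control replicate 2 at 3 days and control replicate 1 at 7 days had the fewest genes above 0, with 8667 and 10356.

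The members spanned a wide range of levels. Their mean FPKM ran from 1003 (Prupe.3G206200) to 22755 (Prupe.3G287000), with a median of 1570 and quartiles of 1234 and 2411. Of the 123, 83 lay between 1000 and 2000 FPKM, 40 at 2000 or more and 10 at 5000 or more. No member was listed at 0 in any library, and 58 members stayed at 1000 FPKM or more in all 16, whereas 65 were under 1000 in some library. The lowest single value was 376 FPKM, for Prupe.3G167500 in control replicate 4 at 7 days. All 123 passed the filter on low values used for the fits (1 FPKM or more in at least 4 libraries).

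The thresholds cut through a continuous range. The steady gene next below the level threshold, Prupe.2G249000, had a mean of 985 FPKM, close to the 1003 FPKM of the lowest member. The member nearest a bound was Prupe.1G234000, whose median log2 level in HC buds differed by -0.99 (7 minus 3 days). The nearest gene outside was Prupe.6G028600, with a mean of 1504 FPKM and a median log2 difference of 1.01 in the same comparison. Among the 59 genes past a bound, 41 passed it for 7 against 3 days in HC buds and 43 in control buds, compared with 14 for HC against control at 7 days and 22 at 3 days. A gene could pass more than 1 bound, and 17 passed a single one.

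Between 23.4% and 28.8% of all FPKM in a library belonged to the members, and the part was smaller in HC buds than in control buds at 7 days. At 7 days the members held 23.5%, 25.3%, 27.0% and 24.2% of all FPKM in the 4 HC libraries, against 28.8%, 28.3%, 28.4% and 27.8% in the 4 control libraries. All 4 HC libraries lay below all 4 control libraries. The means were 25.0 ± 1.55% in HC buds and 28.3 ± 0.402% in control buds (SD, n = 4 each), a difference of -3.33 percentage points.

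At 3 days the shares were 23.4%, 26.5%, 25.4% and 24.8% in HC buds, against 27.4%, 28.4%, 27.4% and 26.0% in control buds. The groups overlapped, since HC replicate 2 was above control replicate 4. The means were 25.0 ± 1.31% in HC buds and 27.3 ± 1.01% in control buds (SD, n = 4 each), a difference of -2.25 percentage points. Between days the mean share differed by -0.0441 points in HC buds and by 1.03 points in control buds (7 minus 3 days). The first was within the SD of either group. The second was close to the SD of control buds at 3 days (1.01) and above that at 7 days (0.402). Both pairs of groups overlapped, in control buds through replicate 2 at 3 days alone (28.4%), the library with the fewest genes above 0. The other control libraries of 3 days lay below all control libraries of 7 days.

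**Figure D1:**
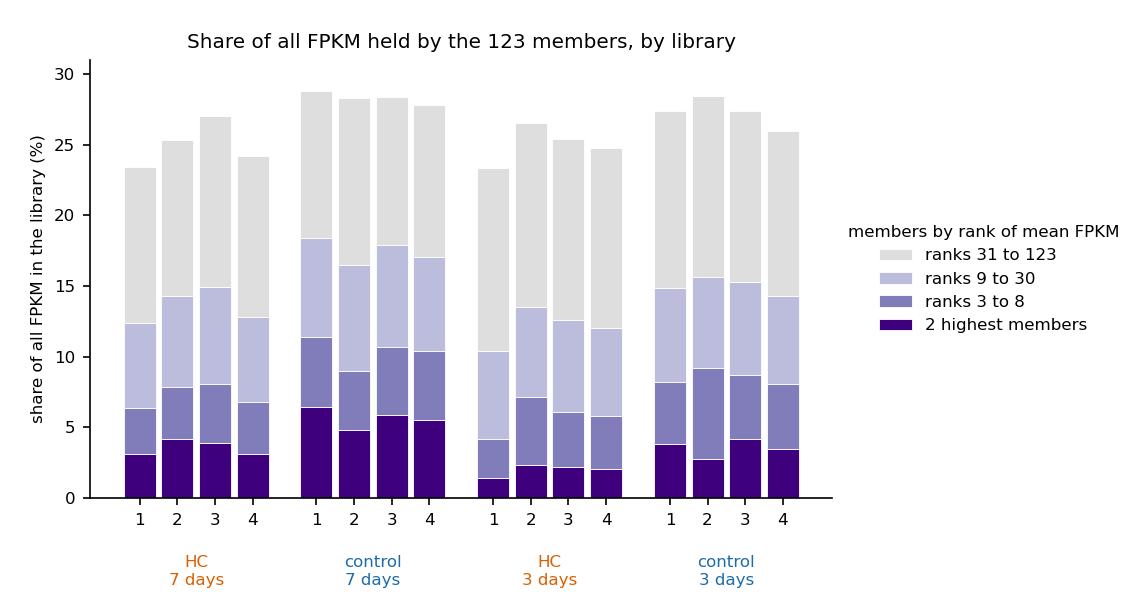
Share of all FPKM (percent, y axis) held by the 123 members in each of the 16 libraries (x axis: replicate number within group), stacked by rank of mean FPKM, with the 2 highest members at the bottom. The 4 HC libraries at 7 days lie between 23.5% and 27.0% and the 4 control libraries between 27.8% and 28.8%, while the groups overlap at 3 days.

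The mean number of genes above 0 was higher in HC libraries at both days, with overlapping groups and differences smaller than the SD of either group. It averaged 15551 ± 2232 in HC libraries and 13474 ± 2325 in control libraries at 7 days, and 15697 ± 2500 in HC libraries and 13633 ± 3357 in control libraries at 3 days (SD, n = 4 each). It ran between 13052 and 18378 in HC libraries and 10356 and 15834 in control libraries at 7 days, and between 13366 and 18271 in HC libraries and 8667 and 15930 in control libraries at 3 days. HC replicate 1 had the most genes of its group at each day, 18378 at 7 days and 18271 at 3 days. It also had the lowest member share of its group. In every group the library with the fewest genes had the highest member share. At 7 days these were HC replicate 3 (13052 genes, 27.0%) and control replicate 1 (10356 genes, 28.8%). At 3 days they were HC replicate 2 (13366 genes, 26.5%) and control replicate 2 (8667 genes, 28.4%). The control libraries named here had the lowest estimated depths. In control buds the library with the most genes did not have the lowest share at either day. The part of the number of genes or of the depth in the shares was not tested. The members' share of the FPKM weighted by transcript length, using the factor described below, was 16.5 ± 1.26% in HC buds and 19.2 ± 0.403% in control buds at 7 days, and 17.1 ± 1.26% in HC buds and 18.4 ± 0.731% in control buds at 3 days (SD, n = 4 each).

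Genes outside the set made up the rest. The 59 other very abundant genes held a mean of 13.2% in HC buds and 15.0% in control buds at 7 days, and 14.8% in HC buds and 16.0% in control buds at 3 days. All genes under 1000 FPKM held 61.8% in HC buds and 56.7% in control buds at 7 days, and 60.2% in HC buds and 56.7% in control buds at 3 days. Between 100 and 119 of the 123 members were among the 200 highest genes of each library.

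Within the set, the lower share in HC buds lay mostly with the members at the top. The 8 members with the highest mean FPKM together differed by -3.07 percentage points at 7 days and -2.76 points at 3 days (HC minus control), whereas the other 115 together differed by -0.263 points at 7 days and 0.512 points at 3 days. The 2 highest alone held 3.58 ± 0.540% in HC buds and 5.66 ± 0.672% in control buds at 7 days, and 2.01 ± 0.402% in HC buds and 3.55 ± 0.588% in control buds at 3 days (SD, n = 4 each).

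Between days the total was made of parts that differed in opposite directions, and it was near constant in HC buds alone. In HC buds the 2 highest members differed by 1.57 points and the other 121 by -1.61 points (7 minus 3 days). In control buds the same parts differed by 2.11 and -1.08 points, and the total by 1.03 points. The 93 members of ranks 31 to 123 held 11.4 ± 0.507% at 7 days and 12.9 ± 0.144% at 3 days in HC buds, and 10.9 ± 0.648% at 7 days and 12.3 ± 0.483% at 3 days in control buds (SD, n = 4 each).

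Prupe.3G287000 was the most abundant identifier of the whole matrix by mean FPKM. At 7 days it had 17257, 24418, 20253 and 16524 FPKM in HC buds, against 35764, 26704, 41695 and 35210 FPKM in control buds. At 3 days it had 8695, 15264, 14627 and 13378 FPKM in HC buds, against 25254, 16844, 28694 and 23493 FPKM in control buds. Every HC library was below every control library at both days, with log2 fold changes (HC over control, here and below from limma on log2(FPKM + 1), with its standard error) of -0.83 ± 0.19 at 7 days and -0.87 ± 0.19 at 3 days. Between days the log2 fold changes were 0.61 ± 0.19 in HC buds, without overlap, and 0.57 ± 0.19 in control buds, with overlap (7 over 3 days).

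Prupe.1G134900 was also lower in HC buds at both days. It had 16430, 23140, 24755 and 18111 FPKM in HC buds at 7 days, against 38129, 28726, 29665 and 27661 FPKM in control buds. At 3 days the values were 6447, 12504, 10871 and 10043 FPKM in HC buds, against 19729, 16340, 19979 and 16104 FPKM in control buds. HC and control libraries did not overlap at either day, with log2 fold changes of -0.60 ± 0.17 at 7 days and -0.89 ± 0.17 at 3 days, and neither did the days within a treatment, with 1.07 ± 0.17 in HC buds and 0.78 ± 0.17 in control buds. Its mean in HC buds at 7 days, 20609 FPKM, lay near its mean in control buds at 3 days, 18038 FPKM.

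Prupe.2G010400 had the lowest called shift with HC at 7 days. It had 6165, 7967, 8027 and 6403 FPKM in HC buds at 7 days, against 14210, 10088, 14268 and 12705 FPKM in control buds. The 3-day values were 2272, 4456, 3991 and 3632 FPKM in HC buds, against 6877, 6138, 8165 and 7313 FPKM in control buds. No HC library reached the lowest control library of its day, and the log2 fold changes were -0.84 ± 0.17 at 7 days and -1.03 ± 0.17 at 3 days. The day comparisons gave 1.03 ± 0.17 in HC buds and 0.84 ± 0.17 in control buds, again without overlap.

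Prupe.1G341500 had 4614, 4350, 4415 and 3989 FPKM in HC buds at 7 days, against 6186, 6015, 8776 and 8767 FPKM in control buds. In HC buds at 3 days it had 1562, 7162, 5584 and 3486 FPKM, against 7282, 7760, 8262 and 8177 FPKM in control buds. The HC libraries were lower without overlap at both days, and those of 3 days were spread widely. The log2 fold changes were -0.75 ± 0.33 at 7 days and -1.03 ± 0.33 at 3 days. Its SD within groups was 0.510 on the log2 scale, against a median of 0.226 over the members.

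Prupe.6G255100 went the other way at 3 days. In HC buds it had 11310, 13894, 12372 and 11249 FPKM at 3 days, against 7602, 5856, 7499 and 8932 FPKM in control buds. At 7 days it had 10831, 12052, 11815 and 12275 FPKM in HC buds, against 8115, 11016, 13994 and 11637 FPKM in control buds. The HC libraries were above all control libraries at 3 days alone, and the log2 fold change was 0.72 ± 0.14 at 3 days. It was 0.09 ± 0.14 at 7 days, and negative with median-of-ratios scaling, with library weights, without control replicate 1 at 7 days, and without both libraries with the fewest genes. The control level was higher at 7 days than at 3 days by 0.57 ± 0.14, while the difference in HC buds was -0.05 ± 0.14, and positive without HC replicate 2 at 3 days.

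Of the remaining members among the 8 highest, Prupe.1G128700 and Prupe.5G005100 differed less between treatments. Prupe.1G128700 averaged 7665 ± 1409 FPKM in HC buds and 9395 ± 1261 FPKM in control buds at 7 days, and 10323 ± 3387 FPKM in HC buds and 14470 ± 710.2 FPKM in control buds at 3 days (SD, n = 4 each). Its groups overlapped at 7 days and not at 3 days. For Prupe.5G005100 all groups overlapped, and the log2 fold changes were -0.14 ± 0.24 at 7 days and -0.13 ± 0.24 at 3 days.

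Prupe.5G153300 was the least steady member between replicates. At 7 days it had 1010, 2166, 4888 and 3848 FPKM in HC buds, against 9345, 3954, 3401 and 4465 FPKM in control buds. At 3 days it had 2469, 6439, 2138 and 5534 FPKM in HC buds, against 5982, 30665, 7803 and 6566 FPKM in control buds. The groups overlapped at both days, and control replicate 2 at 3 days was far above all others. The log2 fold changes were -0.94 ± 0.62 at 7 days and -1.41 ± 0.62 at 3 days. Without this gene the mean share of the members at 3 days was 24.7% in HC buds and 26.2% in control buds. With it the shares were 25.0% and 27.3%.

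**Figure D2:**
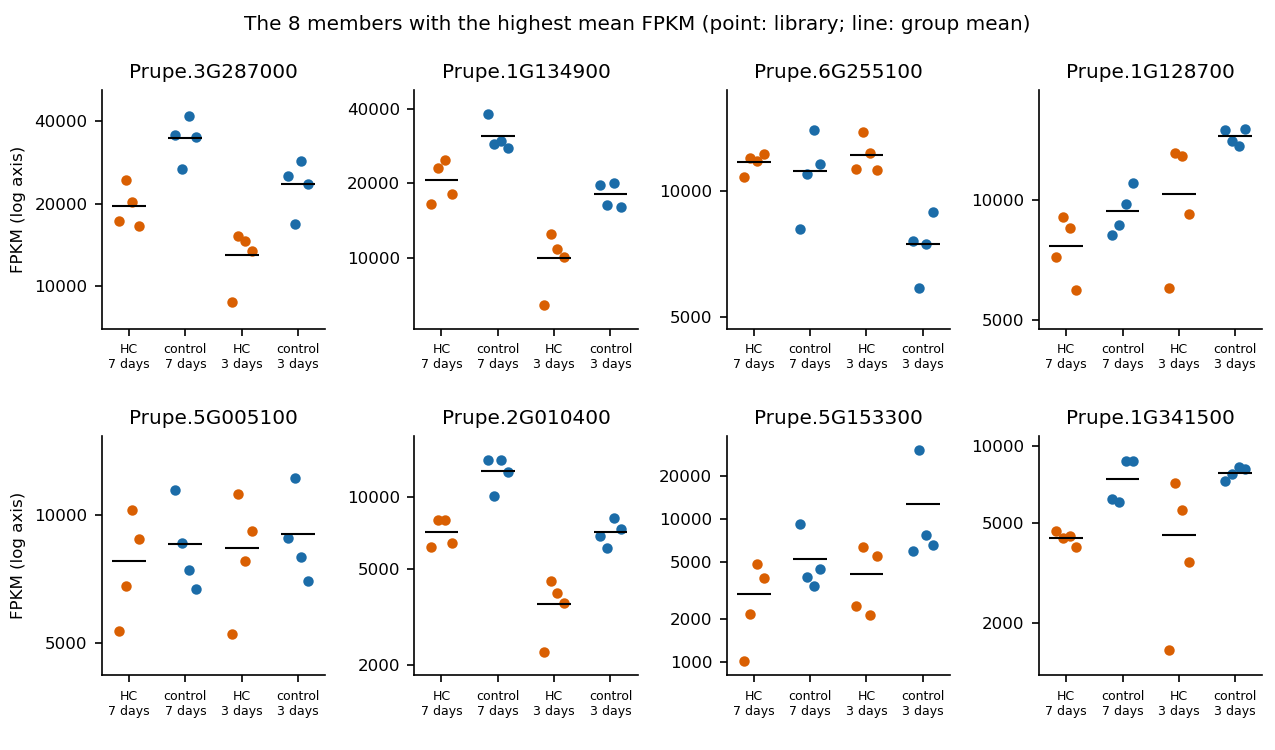
FPKM (y axis, log scale, set per panel) of the 8 members with the highest mean FPKM in each library (points), with the group mean (line), for HC and control buds at 7 and 3 days (x axis). Prupe.3G287000, Prupe.1G134900, Prupe.2G010400 and Prupe.1G341500 have all HC points below all control points at both days, and Prupe.6G255100 has its HC points above control at 3 days.

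Over all members the shifts with HC at 7 days were centred near 0. The median log2 fold change of the 123 members was 0.00, with a range of -0.94 to 0.56, against a median of 0.27 over the 16596 genes tested. Positive values were found for 63 members and negative for 60, against 64.3% positive among all genes, and 112 members were within 0.5. With median-of-ratios scaling the split was 41 positive to 82 negative, and the median of the members was -0.11. By rank, the median was -0.68 for the 8 highest members, -0.18 for ranks 9 to 30 and 0.06 for ranks 31 to 123.

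At an adjusted p under 0.05 (limma, Benjamini-Hochberg over all genes tested), 2 members were called at 7 days, both lower in HC buds, against 0.446% of all genes tested in either direction and 0.121% lower. These were Prupe.2G010400 and Prupe.4G119300, which were also called lower at 3 days, against 0.0422% of all genes called lower at both days. No member was called higher, against 0.325% of all genes. At an unadjusted p under 0.05, 13 members were higher and 21 lower, against 8.62% and 2.04% of all genes. Without overlap between the groups, 13 members were lower and 7 higher, against 1.45% and 4.81% of all genes. Since the rule used this comparison, nothing is read from these counts. With single libraries left out, between 26 and 166 of all genes were called, and between 0 and 4 members. The count was 0 without HC replicate 1, 3 or 4 or without control replicate 1, 3 or 4 at 7 days, 1 without HC replicate 2 or 4 or control replicate 1, 3 or 4 at 3 days, 3 without HC replicate 2 at 7 days or HC replicate 1 at 3 days, and 4 without control replicate 2 at 3 days.

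Prupe.4G119300 resembled Prupe.1G134900 and Prupe.2G010400 in its shifts, at a lower level. It had 3233, 3696, 3067 and 2218 FPKM in HC buds at 7 days, against 4577, 4775, 4916 and 4666 FPKM in control buds. The 3-day values were 1577, 1824, 2337 and 1678 FPKM in HC buds, against 3310, 3047, 3184 and 2942 FPKM in control buds. The HC libraries were below all control libraries at both days, with log2 fold changes of -0.66 ± 0.14 at 7 days and -0.77 ± 0.14 at 3 days. It is given because it is 1 of the 2 members called, and it was chosen after its values were seen.

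The highest shifts with HC at 7 days were those of Prupe.6G313900 and Prupe.8G238900. Prupe.6G313900 had 1962, 1879, 2662 and 2272 FPKM in HC buds, against 1317, 1647, 1455 and 1474 FPKM in control buds. All its HC libraries were higher, with a log2 fold change of 0.56 ± 0.15 at 7 days, compared with -0.09 ± 0.15 at 3 days. Prupe.8G238900 had a log2 fold change of 0.53 ± 0.28 at 7 days with overlapping groups.

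At 3 days the median log2 fold change with HC was -0.01 over the members, with a range of -1.41 to 0.92, against 0.15 over all genes tested. It was positive for 60 members, against 57.4% of all genes, and negative for 63, and 102 were within 0.5. By rank the medians were -0.88 for the 8 highest, -0.04 for ranks 9 to 30 and 0.03 for ranks 31 to 123.

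At 3 days 13 members were called, 7 higher and 6 lower in HC buds, against 1.81% of all genes in either direction, 1.08% higher and 0.735% lower. Without overlap, 12 members were higher and 15 lower, against 4.97% and 3.56% of all genes. The rule used this comparison too, and nothing is read from the counts. The count of 13 fell to 7 without HC replicate 1 and to 8 without control replicate 3 at 3 days. Over all genes 169 and 224 were then called, in place of 301.

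Below the 8 highest members, the widest negative shift at 3 days was that of Prupe.1G226000. It had 434, 1016, 917 and 769 FPKM in HC buds at 3 days, against 1436, 1442, 1701 and 1554 FPKM in control buds. All HC libraries were lower, with a log2 fold change of -1.03 ± 0.20 at 3 days, and the groups overlapped at 7 days with -0.53 ± 0.20.

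The widest positive shifts at 3 days were those of Prupe.2G236000 and Prupe.6G091600. Prupe.2G236000 had 1667, 1816, 2158 and 2185 FPKM in HC buds, against 1162, 977, 1038 and 954 FPKM in control buds. Prupe.6G091600 had 1760, 1148, 1345 and 1217 FPKM in HC buds, against 868, 825, 725 and 597 FPKM in control buds. Both were higher in all HC libraries, with log2 fold changes of 0.92 ± 0.14 and 0.85 ± 0.17, and at 7 days the values were 0.31 ± 0.14 and 0.20 ± 0.17 with overlapping groups.

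Across the days, 39 members had a negative and 39 a positive log2 fold change with HC at both days, while 24 were negative at 3 days and positive at 7 days and 21 the reverse. Without overlap at both days, 7 members were lower in HC buds, against 0.259% of all genes, and 2 were higher, against 0.404%. The 7 were Prupe.3G287000, Prupe.1G134900, Prupe.2G010400, Prupe.1G341500, Prupe.6G224000, Prupe.4G119300 and Prupe.2G281000, which together held a mean of 5.72% of all FPKM. The 2 were Prupe.1G010400 and Prupe.2G133700, with 0.215%. Under median-of-ratios scaling 4 members were lower without overlap at both days, and with equal FPKM sums 4 were higher. Both comparisons formed the membership rule, so these counts are descriptions.

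Prupe.1G010400 had 1211, 1038, 1289 and 1111 FPKM in HC buds at 7 days, against 867, 950, 742 and 953 FPKM in control buds. The 3-day values were 2022, 2005, 1846 and 1906 FPKM in HC buds, against 1318, 1231, 1232 and 1481 FPKM in control buds. The HC libraries were higher at both days, with log2 fold changes of 0.41 ± 0.12 at 7 days and 0.57 ± 0.12 at 3 days. Within each treatment all 7-day libraries were below all 3-day libraries, with -0.75 ± 0.12 in HC buds and -0.59 ± 0.12 in control buds.

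**Figure D3:**
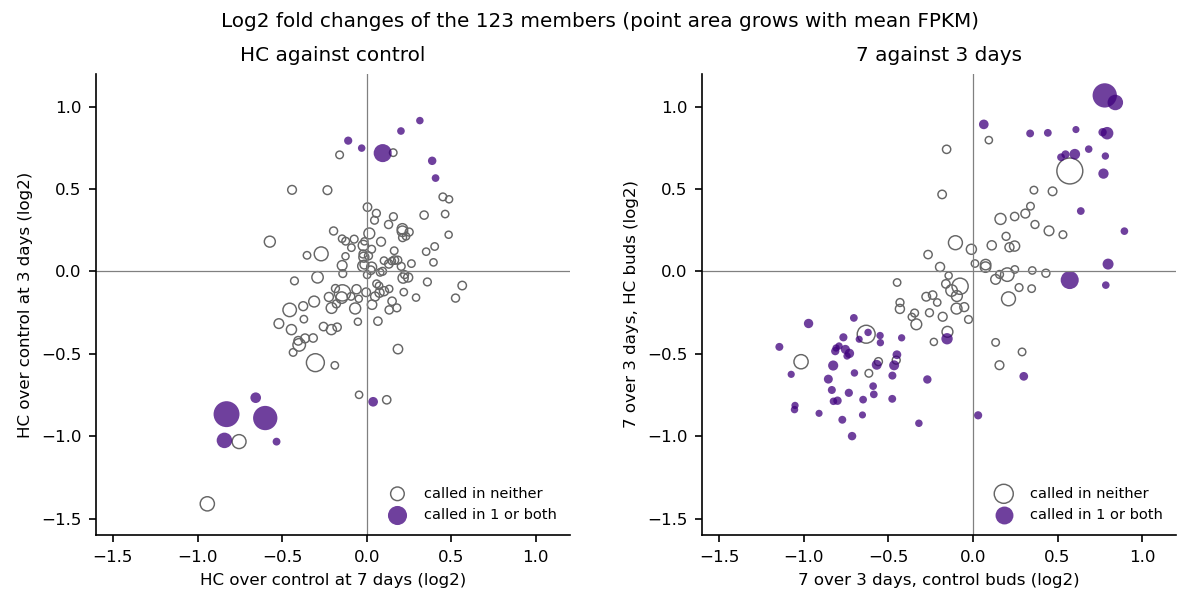
Log2 fold changes of the 123 members (points, area growing with mean FPKM). Left: HC over control at 7 days (x axis) and at 3 days (y axis). Right: 7 over 3 days in control buds (x axis) and in HC buds (y axis). Filled points were called in 1 or both comparisons of a panel. In the left panel the 2 largest points, Prupe.3G287000 and Prupe.1G134900, are negative on both axes and the next, Prupe.6G255100, is positive on both. There 39 members are negative on both axes, as are 66 in the right panel.

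More members lay past 0.5 between days than with HC. In HC buds the median log2 fold change of the members was -0.19 (7 over 3 days), against 0.08 over all genes tested, with 43 positive, against 53.5% of all genes, and 80 negative. In control buds it was -0.15, against -0.02 over all genes, with 51 positive, against 48.5% of all genes, and 72 negative. With median-of-ratios scaling the split in control buds was 63 to 60 and the median of the members 0.00, so the direction of the control median depends on the scaling, while in HC buds the split was 41 to 82. Members within 0.5 numbered 74 in HC buds and 69 in control buds.

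The members called between days numbered 45 in HC buds, 14 higher and 31 lower at 7 days, against 6.23%, 3.62% and 2.62% of all genes. In control buds 51 were called, 14 higher and 37 lower, against 7.36%, 3.41% and 3.95% of all genes. Without overlap, 17 were higher and 40 lower in HC buds, against 10.3% and 7.84% of all genes, and 14 were higher and 37 lower in control buds, against 5.56% and 6.25%. The rule used both comparisons, and nothing is read from these counts. The HC and control day comparisons share no library, and each shares its libraries with the HC comparisons given above.

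Some members were called between days in both treatments, and the rule used both comparisons. Called lower in both were 26 members, which is 21.1% of the 123, against 1.3% of all genes. The 26 were 83.9% of the 31 called lower in HC buds and 70.3% of the 37 in control buds. Among all genes tested, 216 were called lower in both, of 434 in HC buds and 655 in control buds. Called higher in both were 9, which is 7.32% of the 123, against 1.31% of all genes. The 9 were 64.3% of the 14 called higher in each treatment. Among all genes tested, 217 were called higher in both, of 600 in HC buds and 566 in control buds. The count of 26 was 16 (of 22 in HC buds and 36 in control buds) without HC replicate 3 at 3 days, and 17 (of 23 and 35) without HC replicate 4 at 3 days. It was 17 (of 24 in HC buds and 34 in control buds) without HC replicate 1 at 7 days, and 17 (of 22 and 36) without HC replicate 2 at 7 days. With median-of-ratios scaling it was 16, of 31 in HC buds and 22 in control buds. The count of 9 was 5 (of 10 in HC buds and 12 in control buds) without HC replicate 4 at 3 days.

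The 9 called higher in both were Prupe.1G134900, Prupe.2G010400, Prupe.6G224000, Prupe.4G119300, Prupe.1G396100, Prupe.4G221800, Prupe.1G361400, Prupe.5G175700 and Prupe.6G296100. They held a mean of 3.84% of all FPKM, about as much as the 26 called lower in both, which held 3.62%. By rank, the median day shift was 0.06 in HC buds and 0.25 in control buds for the 8 highest members, and -0.28 in HC buds and -0.26 in control buds for ranks 31 to 123.

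The widest negative day shifts were those of Prupe.1G234000 in HC buds and Prupe.8G238900 in control buds. Prupe.1G234000 had 1548, 1211, 1573 and 1252 FPKM in HC buds at 7 days, against 2931, 2641, 2821 and 2706 FPKM in HC buds at 3 days. It had 1054, 1356, 860 and 1026 FPKM in control buds at 7 days, against 1794, 2058, 1529 and 1623 FPKM in control buds at 3 days. All 7-day libraries were lower in both treatments, with log2 fold changes of -0.999 ± 0.144 in HC buds and -0.71 ± 0.14 in control buds.

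Prupe.8G238900 had 721, 1277, 514 and 1132 FPKM in control buds at 7 days, against 1459, 3205, 1566 and 1751 FPKM in control buds at 3 days, a log2 fold change of -1.14 ± 0.28. The next in control buds was Prupe.2G281300, with a log2 fold change of -1.07 ± 0.15. It had 690, 756, 496 and 799 FPKM at 7 days, against 1455, 1478, 1377 and 1377 FPKM at 3 days. In both, the control libraries of 7 days lay below those of 3 days, and in HC buds the same difference was -0.46 ± 0.28 with overlap for Prupe.8G238900 and -0.62 ± 0.15 without overlap for Prupe.2G281300.

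The difference between the HC effects of the days (7 days minus 3 days) had a median of 0.02 over the members, against 0.10 over all genes, with 71 positive, against 54.2% of all genes, and 52 negative. With median-of-ratios scaling the split was 35 to 88 and the medians were -0.15 over the members and -0.02 over all genes, a shift of all genes by more than 0.1. By limma 0 of 123 members were called, against 0.488% of all genes (0.356% higher and 0.133% lower), and at an unadjusted p under 0.05 the members numbered 15, 5 of them higher and 10 lower, against 6.13% higher and 3.51% lower among all genes. In 4 other settings of the fit the count was 1 to 4, and it was 1 without control replicate 1 at 7 days. Over all genes 77 to 227 were called in those 4 settings and 66 without that library, in place of 81.

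The lowest differences of HC effects were those of Prupe.6G343800 and Prupe.2G047300. Prupe.6G343800 had 1635, 1662, 1360 and 1386 FPKM in HC buds at 7 days, against 1696, 1991, 2812 and 1833 FPKM in control buds. At 3 days it had 2093, 2023, 2554 and 2769 FPKM in HC buds, against 1624, 1850, 1628 and 1548 FPKM in control buds. Its HC libraries were below control at 7 days and above control at 3 days without overlap, and the difference of effects was -0.94 ± 0.21. Prupe.2G047300 had -0.90 ± 0.27, from log2 fold changes of -0.11 ± 0.19 at 7 days and 0.79 ± 0.19 at 3 days.

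The highest differences were those of Prupe.8G190400, with 0.90 ± 0.33, and Prupe.6G077600, with 0.83 ± 0.26. Prupe.6G077600 had 2499, 3093, 3039 and 2882 FPKM in HC buds at 7 days, against 2288, 3431, 3210 and 2417 FPKM in control buds. The 3-day values were 1049, 2066, 1903 and 1379 FPKM in HC buds, against 3037, 3022, 2392 and 2324 FPKM in control buds. Its HC libraries were lower at 3 days alone.

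Replicates of the members varied little. The median SD within groups was 0.226 on the log2 scale over the members, from 0.0885 for Prupe.2G321000 to 0.910 for Prupe.5G153300, against 0.382 over the 59 other very abundant genes and 1.03 over all genes tested. The level and the steadiness of group medians chose the members, and both bear on this spread. Prupe.2G321000 had 1951, 1716, 1735 and 1914 FPKM in HC buds at 7 days, against 2358, 2562, 2620 and 2608 FPKM in HC buds at 3 days. It had 1405, 1631, 1538 and 1598 FPKM in control buds at 7 days, against 2496, 2642, 2819 and 2455 FPKM in control buds at 3 days. The days did not overlap in either treatment, with log2 fold changes of -0.47 ± 0.10 in HC buds and -0.75 ± 0.10 in control buds.

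Prupe.1G228200 was the next least variable member. In HC buds it had 2171, 2259, 2335 and 1975 FPKM at 7 days, against 2769, 3578, 3286 and 3344 FPKM at 3 days. In control buds it had 2135, 2155, 2133 and 2126 FPKM at 7 days, against 3002, 3407, 3049 and 3243 FPKM at 3 days. The log2 fold changes between days were -0.57 ± 0.10 in both treatments, and those with HC were 0.03 ± 0.10 at both days. At the other end, Prupe.1G038000 had an SD within groups of 0.588, with 2807, 1251, 958 and 628 FPKM in HC buds at 7 days.

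The steadiest members over all comparisons were few. Of the 123, 48 had all 4 log2 fold changes within 0.5, and 15 had these and the difference of HC effects within 0.25. Apart from size, no call was made in any of the 5 comparisons for 60 members, against 88.5% of all genes. These 60 held a mean of 12.4% of all FPKM. The rule used 4 of these comparisons, and nothing is read from the count.

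The members, like the other very abundant genes, had a low ratio of deposited signal to FPKM. The authors' deposited signal divided by the FPKM, in units of the median over genes, acts like a transcript length. Its median was 0.392 over the members, against 0.446 over the other very abundant genes and 0.998 over all genes tested. Below 1 were 122 of 123 members, against 94.8% of the other very abundant genes and 50.1% of all genes tested, where it was known. FPKM is the divisor of this ratio and the level chose the members, so nothing is read from it about the members. FPKM divides reads by length, so a short transcript reaches a given FPKM with fewer reads. The lowest factors were 0.0172 for Prupe.5G153300 and 0.0980 for Prupe.3G097200, and the highest were 1.20 for Prupe.1G010400 and 0.987 for Prupe.6G064900. Prupe.5G153300, despite a mean of 6292 FPKM, had a median estimate of 674 reads per library and a lowest estimate of 130 reads.

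**Figure D4:**
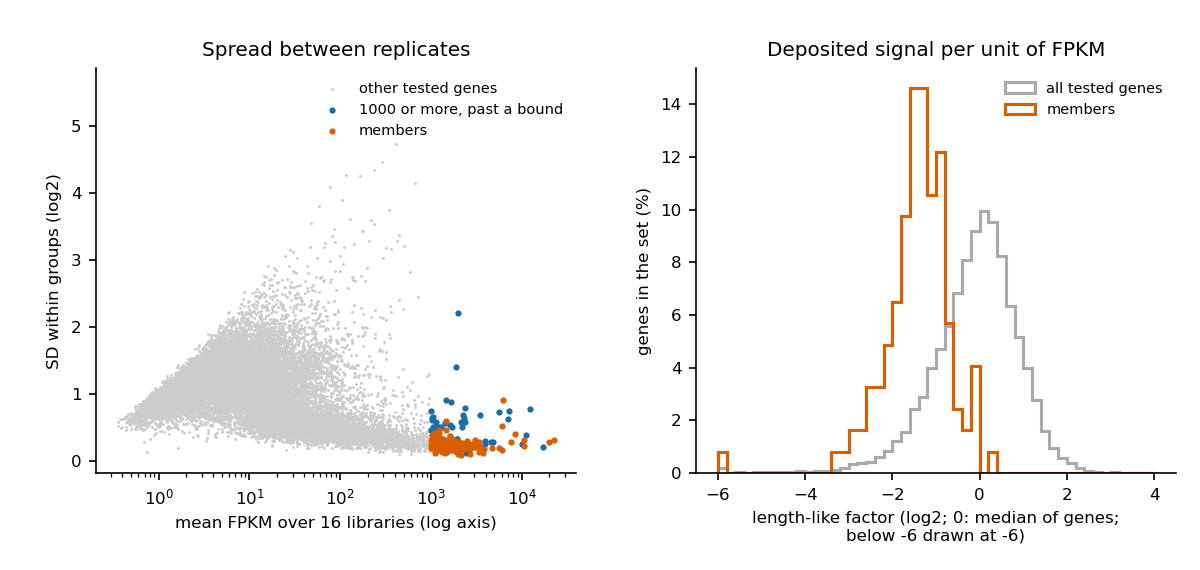
Left: SD within groups on the log2 scale (y axis) against mean FPKM (x axis, log scale) for all 16596 genes tested, with the 123 members and the 59 other very abundant genes marked. Right: distribution of the length-like factor (x axis, log2) as a percentage of the genes of each set (y axis). Members lie at the high end of level with a median SD of 0.226, and their factors lie to the left, with a median of 0.392 against 0.998 over all genes tested.

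The identifiers of the members were spread over all 8 numbered prefixes. Prupe.6G held 25 members, which is 20.3% of them, against 13.6% of all identifiers, and Prupe.1G held 26, which is 21.1% against 21.9%. No members were direct neighbours in the order of identifiers, and the closest pairs, Prupe.6G077600 with Prupe.6G077800 and Prupe.8G238900 with Prupe.8G239100, were 2 places apart. Whether reads were divided between close gene copies was not tested.

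Principal components of the members' log2 levels separated the days first. The first component held 49.2% of the variance and was positive in all 7-day libraries (1.13 to 4.76) and negative in all 3-day libraries (-3.95 to -1.11). On it the HC libraries also lay below the control libraries of their day, without overlap. They ran from 1.13 to 2.71 against 2.75 to 4.76 at 7 days, and from -3.95 to -3.24 against -3.11 to -1.11 at 3 days. The rule used the differences of these days and treatments, so the components are descriptions. The second held 18.2% and was highest in control replicate 2 at 3 days, at 4.72, and lowest in HC replicate 1 at 3 days, at -3.30. Over 7503 pairs of members the median Pearson correlation was 0.0974 across the 16 libraries, with quartiles of -0.307 and 0.476. Within groups it was 0.132, with quartiles of -0.104 and 0.356. These are descriptions over pairs of genes that share libraries.

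In the authors' deposited table for 7 days, 16 of the 123 members had an adjusted p under 0.05, all lower in HC buds, against 8.35% of the genes listed in either direction, 3.62% lower and 4.73% higher. In the authors' deposited table for 3 days the number was 21, 15 higher and 6 lower, against 8.82%, 4.28% and 4.53% of the genes listed. For Prupe.3G287000 the authors' deposited table gave log2 fold changes of -0.92 at 7 days and -0.80 at 3 days. The members held 16.6% of the signal of HC buds and 19.1% of that of control buds at 7 days in the authors' deposited table, and 17.2% of that of HC buds and 18.4% of that of control buds at 3 days. The length-like factor was computed from this signal, so the length-weighted shares above restate these shares and are not separate evidence.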

How the data were processed

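The expression matrix deposited by the authors was taken as FPKM per gene and library, from its values, since most are not whole and each library sums to between 1052238 and 1209106. Per the submitters' processing notes, RSEM 1.2.31, STAR 2.5.2a and Trimmomatic were used, and the genome build is not given in the sources used here. A further table for each day, deposited by the authors, holds a signal per treatment, a log2 fold change and an adjusted p-value, whose method is not given in the sources used here. No column of per-sample values was left unused.

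Groups came from the labels. Members were found by the stated rule, and the members and lists were chosen with earlier results of these data known. Levels were compared on log2(FPKM + 1), which understates changes of low genes, with limma 3.58.1 (trend and robust, statmod 1.5.0) in R 4.3.3, with 1 mean per group over all 16 libraries. The 16596 genes that reached 1 FPKM in at least 4 libraries entered the test, and p-values were adjusted by Benjamini-Hochberg over all of them and called under 0.05. The fit was tested on simulated data. The libraries were treated as independent, although by the labels buds of both days may come from the same trees.

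Depth was estimated by multiplying FPKM by the signal-to-FPKM ratio and finding the step on which low values fall. Between 73.8% and 92.4% of low values lay within 0.2 of a whole number of steps in 13 libraries. The part was 43.4% to 44.7% in HC replicate 3 and control replicate 4 at 3 days and HC replicate 1 at 7 days. For a step fixed beforehand chance would give 40%. Each step was chosen as the best on the same values, so the chance level that applies is not known. Depth was used for description alone.

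Members were named by rule. They are the 8 with the highest mean FPKM, the 2 highest and 2 lowest log2 fold changes per comparison, the 2 lowest and 2 highest SDs within groups and length-like factors, and those at the edges of the membership rule. Product classes and marker lists could not be applied without gene names. Alternatives were another pseudocount, no filter, other scalings, fewer libraries, a replicate block, library weights and other membership thresholds.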

Additional observations from a re-analysis of the deposited data

Results flagged for a closer look

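In 8 of the 116 groups of 4 libraries examined, 1 library stood apart from the other 3 by Dixon's criterion, which flags about 1 in 20 groups by chance. Of these, 4 were in control replicate 2 at 3 days, the library with the fewest genes above 0. There, Prupe.5G153300 was at 30665 FPKM, against 5982 to 7803 in the other control libraries of that day. Prupe.8G238900 was at 3205 FPKM, against 1459 to 1751, Prupe.8G190400 at 2932 FPKM, against 1507 to 1655, and Prupe.6G064900 at 1372 FPKM, against 974 to 1026.

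At 7 days, control replicate 1 had 2007 FPKM for Prupe.6G064900, against 1170 to 1279 in the other control libraries. Control replicate 2 had 1944 FPKM for Prupe.6G091600, against 1217 to 1281. HC replicate 3 had 1850 FPKM for Prupe.8G238900, against 1040 to 1095 in the other HC libraries. The length-weighted share of the members was 18.6% in control replicate 4 at 7 days, against 19.3% to 19.4% in the other control libraries of that day.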

How the results depend on the processing

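The counts of members called moved with the settings of the fit. With the libraries compared alone, 8 members were called for HC over control at 3 days and 1 at 7 days, in place of 13 and 2. Between days in control buds 29 members were called, in place of 51. Over all genes that setting called 227, 14 and 542, in place of 301, 74 and 1221. For the difference of HC effects that setting holds the same libraries and gives no other value. With library weights the counts were 23 at 3 days, 1 at 7 days and 4 for the difference of HC effects. Over all genes they were 869, 71 and 227, in place of 301, 74 and 81. At 7 days the members called were 0 with a pseudocount of 0.1, 1 without a filter and 0 without the 2 libraries with the fewest genes. Over all genes those settings called 44, 74 and 73. For the difference the members called were 1 with median-of-ratios scaling, 1 with equal FPKM sums and 2 without these 2 libraries, in place of 0. Over all genes those settings called 77, 85 and 109. The causes were not tested. Leaving out single libraries gave 7 to 13 members at 3 days, 0 to 4 at 7 days, 32 to 54 between days in HC buds, 38 to 51 in control buds and 0 to 1 for the difference. Members called lower between days in both treatments numbered 16 with median-of-ratios scaling and 16 with the libraries compared alone, and 16 to 25 with single libraries left out. Those called higher numbered 5 to 9. Without overlap at both days, 4 members were lower with HC under median-of-ratios scaling and 4 higher with equal FPKM sums. The last 4 counts were examined after seeing the data.

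Over all genes, the counts called ranged between 14 and 166 for HC at 7 days, 169 and 869 at 3 days, 734 and 2977 between days in HC buds, 542 and 1317 in control buds and 34 and 227 for the difference, in place of 74, 301, 1034, 1221 and 81.

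Same-numbered replicates did not deviate together, with residual correlations of -0.0504 to 0.125 and 1 of 16 over 0.1, which did not show a pairing by number. With a replicate block, the members called were 1 for HC at 7 days and 12 at 3 days. They were 45 and 49 between days in HC and control buds and 0 for the difference. Over all genes, in the same order, 43, 253, 809, 1011 and 38 were called, in place of 74, 301, 1034, 1221 and 81.

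The share of the members depended on the membership and on the weight, and in the order HC and control at 7 days, then HC and control at 3 days, it was 28.8%, 33.3%, 29.4% and 32.5% with other very abundant genes left out of the sum. It was 16.5%, 19.2%, 17.1% and 18.4% weighted by length, 15.4%, 19.2%, 14.0% and 17.2% for members at 2000 FPKM or more, and 32.4%, 35.3%, 33.2% and 35.0% for a threshold of 500. With bounds of 0.5 it was 9.71%, 10.2%, 10.1% and 9.997%. Without the highest member it was 23.2%, 25.3%, 23.9% and 25.3% in the same order. Without Prupe.5G153300, a choice made after seeing the data, it was 24.7%, 27.9%, 24.7% and 26.2%. The 2 highest members held 2.58%, 4.20%, 1.49% and 2.66% weighted by length, in the same order. Leaving out single libraries moved the mean share to between 24.3% and 25.5%, 28.2% and 28.5%, 24.5% and 25.6%, and 26.9% and 27.7%, and that of the 2 highest to between 3.39% and 3.74%, 5.41% and 5.95%, 1.90% and 2.21%, and 3.35% and 3.81%. In every one of these settings the mean share was lower in HC buds at 7 days, and at 3 days with the exception of bounds of 0.5. The settings share genes and libraries, so they are not separate evidence.

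The rule gave 116 members with means in place of medians (114 shared), 113 with median-of-ratios scaling (111 shared), 123 with a pseudocount of 0.1, and 115 to 123 with single libraries left out. Each called log2 fold change of the members named by rule and of Prupe.4G119300 kept its sign under all alternatives run.

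Depth is an estimate, since FPKM gives no counts and 3 libraries have none. The design leaves HC and surfactant together, and 4 libraries per group bound what small shifts can be told from the spread.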
